A study of Mus musculus with 45 samples.

Results

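9 genes were described: Egln1, Egln3, Bnip3, Ndrg1, Adm, Vegfa and Pdk1, which respond to oxygen through hypoxia-inducible factors (HIF), and the glycogen genes Gys1 and Gbe1. They were taken by symbol, with every probe set annotated to them, and make up 9 of the 11807 genes measured at passages 4, 6 and 16 and 9 of the 12394 measured at passage 10. They carried 14 probe sets in the first table and 18 in the other. The 45 arrays came from induced pluripotent stem cell (iPSC) lines of mouse, made with a secondary system, in which the cells of an animal already carry the inducible reprogramming factors. They were grown with LIF and 15% serum on irradiated embryonic fibroblasts as feeders, which 45 minutes of preplating served to remove before RNA was extracted. All groups held 3 clones. The lines of mouse 2 started from fibroblasts of the tail tip (TTF), B cells of the spleen (B), T cells (T) and granulocytes of the bone marrow (Gra) and were sampled at passages 4, 10 and 16 (p4, p10, p16). Mouse 1 gave lines from skeletal muscle precursors (SMP) at p6 and granulocyte lines at p16 and p4. The clones of an origin came from 1 mouse, so p-values cover the spread between clones, not between animals.

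HIF is a pair of an alpha and a beta subunit that binds DNA and switches on genes when oxygen is low. With oxygen present, the prolyl hydroxylases encoded by Egln1 and Egln3 mark the alpha subunit for destruction, and both genes are themselves HIF targets, which makes a feedback loop. Targets of the factor cover mitophagy (Bnip3), stress response (Ndrg1), secreted vessel signals (Adm, Vegfa), the brake on pyruvate entry into mitochondria (Pdk1) and glycogen synthesis, in which Gys1 builds the chain and Gbe1 adds branches. Pluripotent stem cells are known for a high rate of glycolysis.

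The core of the HIF binding motif is ACGTG or GCGTG. Upstream sequences from RefSeq (GRCm38.p6) matched 8 of the 9 genes, with 10 entries in all, and Ndrg1 had none. Within the 250 bases before the start, 4 of the 10 entries held ACGTG on either strand and 5 held GCGTG, against 16.6% and 28.2% of 32851 promoters of the same length. 6 of the 10 entries, from 6 genes, held either motif, against 38.6% of all promoters. Vegfa and Pdk1 have a pair of entries each, of which 1 held a motif. For Vegfa that entry (chr17:46025164-46025413) lies inside the gene, which spans 46016993 to 46032377. The Vegfa entry before the outer end of the gene (chr17:46032378-46032627) held neither motif. The counts above include the inner entry. The Gys1 and Gbe1 windows held neither. A letter match is a description and not a binding site. Of the genes shown that were lowest in TTF at p4, Bnip3, Egln1 and Egln3 held a motif and Gbe1 did not. These windows are given beside those of Adm and Gys1, which had other patterns of expression. Capitals mark each match, which reads CACGT or CACGC where the match lies on the opposite strand, and in Bnip3 the 2 ACGTG matches are the overlapping strands of 1 palindrome.
Bnip3, chr7:138909507-138909756, strand -: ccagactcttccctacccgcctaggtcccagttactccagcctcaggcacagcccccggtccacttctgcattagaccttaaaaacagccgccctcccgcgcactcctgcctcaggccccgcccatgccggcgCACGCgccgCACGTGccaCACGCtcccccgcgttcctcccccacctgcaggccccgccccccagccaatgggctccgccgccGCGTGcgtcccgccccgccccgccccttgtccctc
Egln1, chr8:124949255-124949504, strand -: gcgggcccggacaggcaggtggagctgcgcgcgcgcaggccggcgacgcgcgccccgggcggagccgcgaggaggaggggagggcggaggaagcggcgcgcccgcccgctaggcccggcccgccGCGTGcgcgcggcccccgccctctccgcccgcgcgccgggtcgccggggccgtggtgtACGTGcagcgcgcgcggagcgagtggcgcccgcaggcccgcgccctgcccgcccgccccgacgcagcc
Egln3, chr12:54203875-54204124, strand -: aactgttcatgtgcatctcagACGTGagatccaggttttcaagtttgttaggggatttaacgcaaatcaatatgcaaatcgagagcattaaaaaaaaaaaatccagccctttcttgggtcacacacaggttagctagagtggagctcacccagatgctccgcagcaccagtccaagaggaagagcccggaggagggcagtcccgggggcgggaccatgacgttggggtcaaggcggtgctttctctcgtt
Adm, chr7:110627407-110627656, strand +: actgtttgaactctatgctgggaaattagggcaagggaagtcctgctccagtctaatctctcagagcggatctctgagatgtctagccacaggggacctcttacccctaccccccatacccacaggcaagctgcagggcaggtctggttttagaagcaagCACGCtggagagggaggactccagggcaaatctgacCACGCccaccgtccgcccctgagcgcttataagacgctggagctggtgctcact
Gys1, chr7:45434589-45434838, strand +: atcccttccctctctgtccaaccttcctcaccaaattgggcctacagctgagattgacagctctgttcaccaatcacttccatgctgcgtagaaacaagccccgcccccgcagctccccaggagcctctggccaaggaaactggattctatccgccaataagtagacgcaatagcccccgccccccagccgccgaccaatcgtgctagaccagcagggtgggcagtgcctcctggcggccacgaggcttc
Gbe1, chr16:70313699-70313948, strand +: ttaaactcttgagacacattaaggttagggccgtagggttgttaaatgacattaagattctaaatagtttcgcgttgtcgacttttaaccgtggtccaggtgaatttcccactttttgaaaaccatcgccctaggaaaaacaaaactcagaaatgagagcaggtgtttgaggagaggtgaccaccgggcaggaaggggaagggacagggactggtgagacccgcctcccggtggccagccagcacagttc

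Values are the authors' log2 array values, so a difference of 1 is a fold of 2. Each gene was represented by its brightest probe set on average, and "called" means an adjusted p under 0.05 in a limma fit over all genes of the table. The cells carried the pluripotency genes at high levels in both tables. Pou5f1, Nanog and Sox2 ranged from 10.79 to 11.66, from 10.17 to 12.33 and from 10.63 to 11.47 at passages 4, 6 and 16, and from 12.89 to 13.24, from 12.63 to 13.06 and from 13.02 to 13.29 at p10. 1 array stood apart: clone 3 of the Gra lines of mouse 2 at p16 correlated with the rest of its group at r = 0.9222, the lowest of the series, and its pluripotency marker mean was the lowest at 10.64. Results that rest on it are given with and without it. The mean of a list of fibroblast markers, genes that feeder cells also express, is given for each group compared. Bulk values cannot tell fewer cells of a kind from less RNA per cell.

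**Figure D1:**
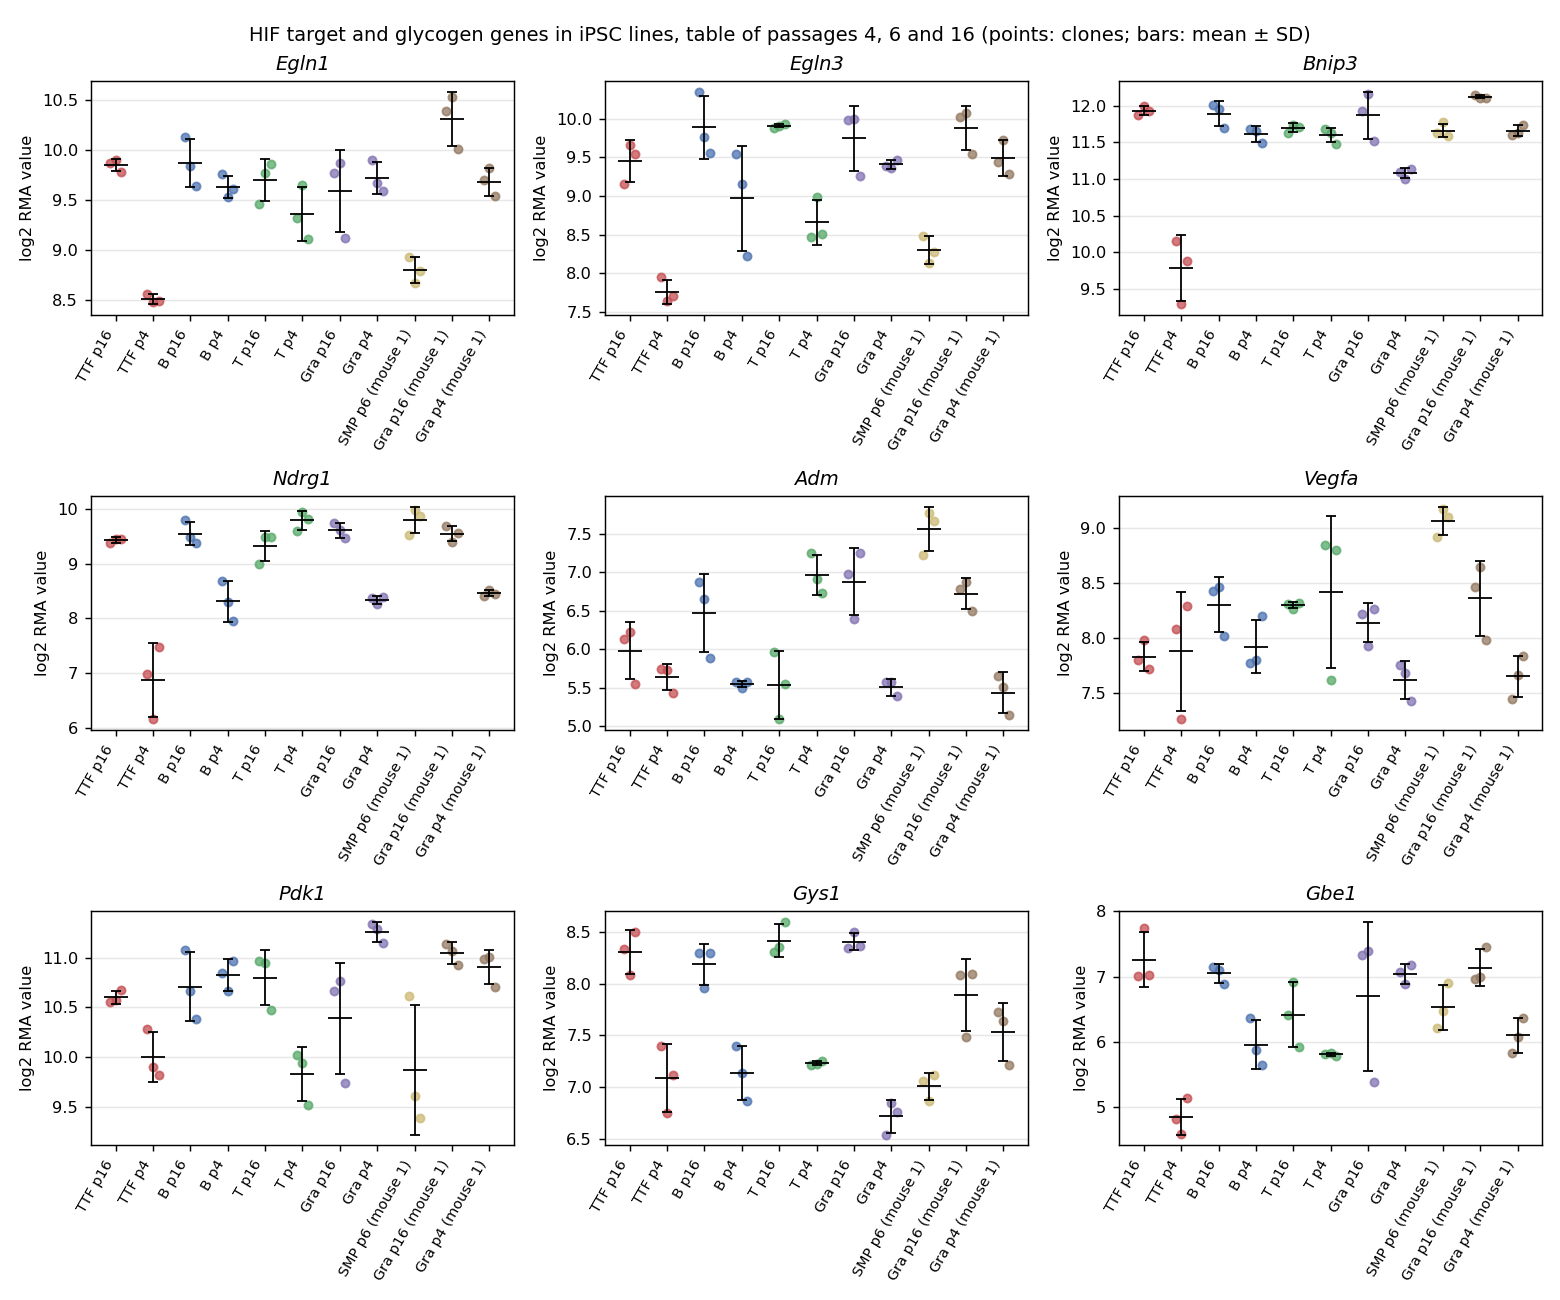
Log2 values of the 9 genes in each clone (points, with mean ± SD bars) for the groups of passages 4, 6 and 16; p16 is drawn left of p4 for each origin, and the y axes differ between panels. The 3 TTF clones of p4 sit lowest in the Egln1, Egln3, Bnip3, Ndrg1 and Gbe1 panels.

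At p4, the fibroblast-derived lines were the low ones. Bnip3, a mitophagy receptor, read 10.16, 9.29 and 9.88 in the TTF clones, against 11.68, 11.66 and 11.49 in B, 11.68, 11.62 and 11.48 in T and 11.10, 11 and 11.14 in Gra. Ndrg1, a stress-responsive gene, read 6.98, 6.15 and 7.48 in TTF, against 8.69, 8.29 and 7.95 in B, 9.60, 9.95 and 9.81 in T and 8.38, 8.26 and 8.39 in Gra. In both genes every TTF clone lay below every other clone. The differences were -1.65 ± 0.13 (SE, fold 3.14, adjusted p = 2.8e-09) for Bnip3 and -1.94 ± 0.18 (fold 3.85, adjusted p = 4.5e-08) for Ndrg1, TTF minus the mean of the other 3 origins. Egln1 had 8.56, 8.48 and 8.49 in TTF and 9.11 or more in every other clone, and Egln3 had 7.95, 7.64 and 7.71 in TTF and 8.22 or more elsewhere. Both oxygen sensors were lower as well, by -1.06 ± 0.15 (adjusted p = 1.1e-05) for Egln1 and -1.25 ± 0.21 (adjusted p = 0.00012) for Egln3. Gbe1 was at 4.82, 4.59 and 5.14 in TTF and at 5.64 or more in the other clones (-1.42 ± 0.28, adjusted p = 0.00076).

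Pdk1, the pyruvate dehydrogenase kinase, also fell, by 0.64 ± 0.21 on the log2 scale (adjusted p = 0.029), but the TTF clones at 10.28, 9.90 and 9.82 overlapped the T clones at 10.02, 9.94 and 9.52. Without TTF clone 2 or 3 the Pdk1 call was lost (adjusted p = 0.15 and 0.12). 3 genes gave no call: Adm (-0.36 ± 0.20), Vegfa (-0.11 ± 0.21) and Gys1 (0.06 ± 0.15), with adjusted p of 0.22, 0.78 and 0.84. So 6 of the 9 members were lower and none higher in TTF, where 7.85% of all genes were lower and 11.7% higher. The median difference of the members was -1.06, against 0.06 over all genes. The TTF clones had fibroblast marker means from 6.73 to 6.99, against 6.69 to 6.78 in B, 7.40 to 7.64 in T and 6.92 to 7.09 in Gra. With that mean as a covariate all 6 were still called, from Ndrg1 at -2.05 ± 0.20 to Pdk1 at -0.68 ± 0.24 (adjusted p = 0.043).

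Of the other genes of these pathways, the glycolytic list went down with them: 13 of 16 measured genes were lower and none higher in TTF at p4, with a median of -0.73. The lowest were Aldoc (-2.54 ± 0.28), Slc16a3, which exports lactate (-1.54 ± 0.11), Hk2 (-1.47 ± 0.19) and Pfkfb3 (-1.39 ± 0.20). Of 26 other HIF targets, 10 were lower and 2 higher, among them Tfrc, the transferrin receptor (-1.06 ± 0.13), and Kdm3a, a histone demethylase (-0.84 ± 0.11). Of 12 HIF subunits and regulators, 1 was higher and 1 lower, with a median of -0.08. The glycogen list went the other way in part, with 5 of 19 higher and 2 lower. Pgm1, a phosphoglucomutase, was lower (-1.23 ± 0.19) and Phkb, a phosphorylase kinase subunit, was higher (0.86 ± 0.17).

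The T-cell lines at p4 had a different profile, with Ndrg1 and Adm high. Adm, the vasodilator peptide adrenomedullin, had 7.25, 6.91 and 6.73 in the T clones, against 5.75, 5.73 and 5.44 in TTF, 5.57, 5.5 and 5.57 in B and 5.57, 5.58 and 5.39 in Gra. No T clone overlapped any other. Adm was higher in T by 1.40 ± 0.20 (fold 2.63, adjusted p = 1.5e-05) and Ndrg1 by 1.95 ± 0.18 (fold 3.85, adjusted p = 4.5e-08). Bnip3 was higher by 0.77 ± 0.13 (adjusted p = 0.00012), as it was in B by 0.79 ± 0.13 (adjusted p = 0.00043), and these T and B comparisons share the low TTF lines. Vegfa had 8.84, 7.62 and 8.80 in T, against 8.08, 7.26 and 8.29 in TTF, 7.77, 7.80 and 8.20 in B and 7.75, 7.68 and 7.43 in Gra, so T clone 2 lay among the others. Its difference of 0.61 ± 0.21 (adjusted p = 0.037) lost the call without any of 6 single clones, T clones 1 and 3 included (0.40 and 0.42, adjusted p = 0.29 for each). The Vegfa call was also lost with quantile normalization (0.56 ± 0.22, adjusted p = 0.073). Pdk1 was lower in T by -0.87 ± 0.21 (adjusted p = 0.0035). In all, 4 members were higher and 1 lower, where 12.3% and 6.42% of all genes were, and the median of the members was 0.25, against 0.03 over all genes.

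Around these genes in T, the dimer partner of the HIF alpha subunits, Arnt, was higher by 1.44 ± 0.18 (adjusted p = 3.3e-06). The other HIF targets had 9 of 26 higher and 1 lower, led by Bhlhe40, a transcriptional repressor (1.10 ± 0.16). Of the 6 measured pyruvate dehydrogenase genes, 3 were higher, the kinases Pdk2 (1.49 ± 0.23), Pdk4 (0.88 ± 0.24) and Pdk3 (0.46 ± 0.15), while Pdk1 itself was lower. Ppp1r3c, which targets a phosphatase to glycogen, was higher by 2.02 ± 0.26 and Vegfc, a lymphatic growth factor, was lower by -1.34 ± 0.17. The T clones also had the highest fibroblast marker means at p4, and 15 of 30 fibroblast markers were higher and none lower. No T clone overlapped another origin in that mean, so a fit with it as a covariate cannot separate it from origin. In that fit the Pdk1 call was lost (-0.76 ± 0.34, adjusted p = 0.23). Ndrg1, Adm and Bnip3 were still called there, as was Vegfa, at 1.12 ± 0.32.

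The granulocyte lines of mouse 2 at p4 had high Gbe1 and Pdk1. Gbe1 had 7.07, 6.89 and 7.18 in the Gra clones, against 4.82, 4.59 and 5.14 in TTF, 6.36, 5.87 and 5.64 in B and 5.81, 5.83 and 5.79 in T. Pdk1 had 11.34, 11.29 and 11.15 in Gra and at most 10.97 in any other clone. Both were above every other clone, by 1.5 ± 0.28 (adjusted p = 0.00028) and 1.04 ± 0.21 (adjusted p = 0.00051). Egln3 (0.94 ± 0.21, adjusted p = 0.0014) and Egln1 (0.55 ± 0.15, adjusted p = 0.0059) were higher as well, though Egln1 lost the call without Gra clone 1 (adjusted p = 0.069). These comparisons share the low TTF lines. In limma pairs, B minus Gra was not called for Egln1 (-0.09, adjusted p = 0.88) or Egln3 (-0.43, adjusted p = 0.36). T minus Gra was called for Egln3 (-0.75, adjusted p = 0.028) but not for Egln1 (-0.36, adjusted p = 0.15). Gys1 was lower, by -0.43 ± 0.15 (adjusted p = 0.036), and lost its call when any of 5 single clones was left out and when the probe sets were averaged (-0.12, adjusted p = 0.55). So 4 members were higher and 1 lower (8.33% and 14.8% of all genes), with a median of 0.08, against -0.04 over all genes. Among the B lines only Bnip3 passed, where 3.8% of genes were higher. Over the 4 origins, the F-test called 7 of the 9 members at p4 (39% of all genes), and missed Vegfa and Gys1 (adjusted p = 0.069 and 0.1).

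**Figure D2:**
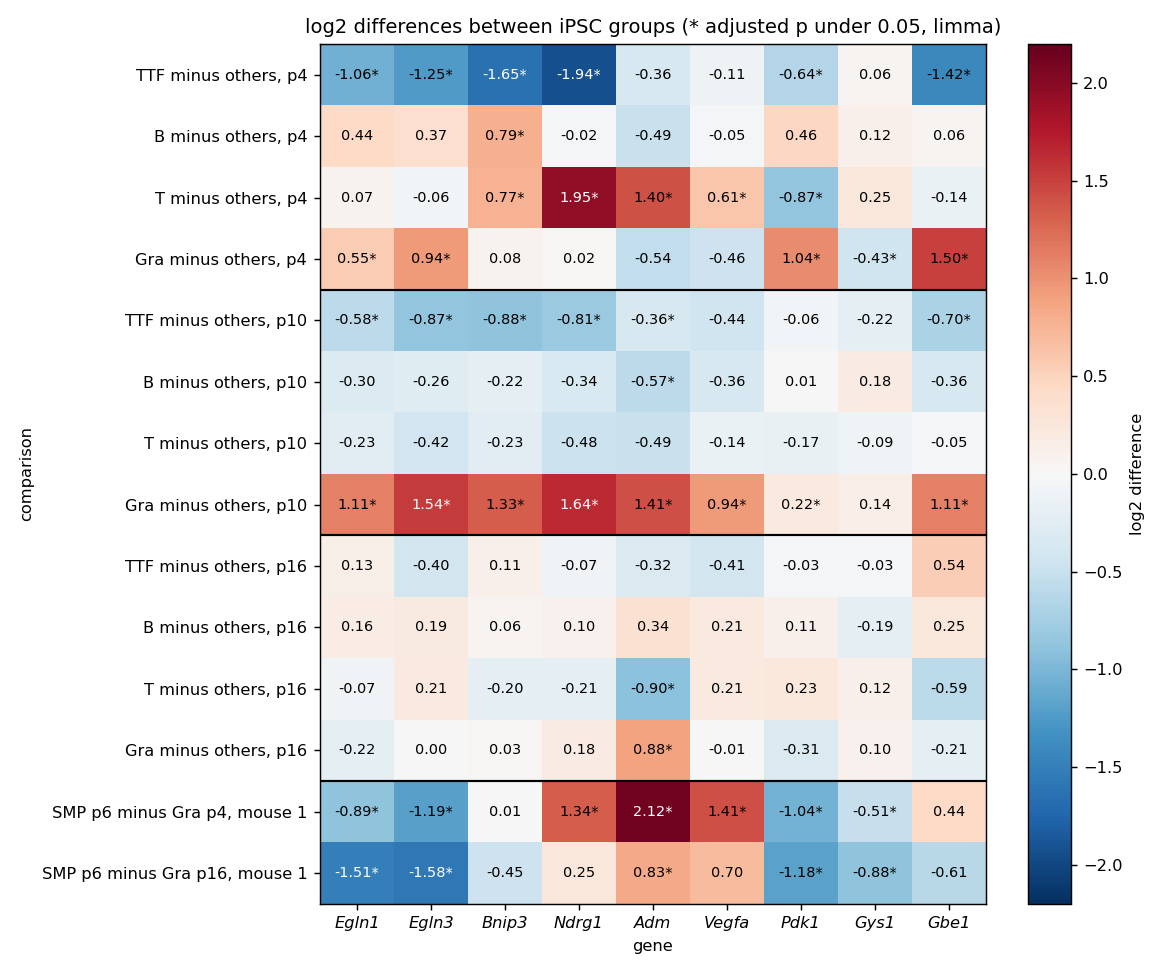
Log2 differences of each origin from the mean of the others at p4, p10 and p16, and of the SMP lines from the Gra lines of mouse 1; colour gives size and sign and an asterisk an adjusted p under 0.05 (limma). The p16 block is pale, with asterisks only for Adm.

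At p10, measured on another array platform, in its own table and so on another scale, the granulocyte lines stood above the other 3 origins. Bnip3 had 13.08, 13.12 and 13.21 in Gra, against 11.61, 11.23 and 11.59 in TTF, 11.42, 12.28 and 12.23 in B and 11.65, 12.57 and 11.69 in T. Egln3 had 10.06, 10.22 and 10.29 in Gra, against 8.49, 8.08 and 8.56 in TTF, 8.28, 9.10 and 9.13 in B and 8.30, 9.38 and 8.47 in T. Ndrg1 had 9.97, 10.41 and 10.65 in Gra, against 8.36, 8.36 and 8.81 in TTF, 8.42, 9.02 and 9.13 in B and 8.52, 9.09 and 8.67 in T. In each of the 3 genes all Gra clones were above all others, and the same held for Egln1, Adm, Vegfa and Gbe1. The differences were 1.64 ± 0.18 for Ndrg1 (fold 3.11, adjusted p = 4.9e-05), 1.54 ± 0.22 for Egln3 (adjusted p = 0.00021), 1.41 ± 0.08 for Adm (adjusted p = 3.2e-06), 1.33 ± 0.20 for Bnip3 (adjusted p = 0.00032), 1.11 ± 0.14 for Egln1 and for Gbe1 (adjusted p = 9.2e-05 and 0.00012) and 0.94 ± 0.16 for Vegfa (adjusted p = 0.00057). Pdk1 differed by 0.22 ± 0.06 (adjusted p = 0.014), with Gra clones overlapping the others, and lost the call without Gra clone 2 (0.16, adjusted p = 0.09). Gys1 had 9.54, 9.76 and 9.43 in Gra, inside the range of the others, and gave no call (0.14 ± 0.10, adjusted p = 0.33).

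So 8 of 9 members were higher in Gra at p10, where 21.1% of all genes were, and the median of the members was 1.11 against -0.01. Gra clones had fibroblast marker means of 7.80 to 7.82, against 8.75 to 8.89 in TTF, 8.16 to 8.34 in B and 8.11 to 8.56 in T. Of 34 markers, 25 were lower in Gra and 1 higher, and the share of all genes lower there is not given here. No Gra clone and no TTF clone overlapped another origin in that mean. A fit with that mean as a covariate therefore cannot separate it from origin at p10. With the marker mean as a covariate the limma fit called 0 of the 9 members and 0 of the 12394 genes (1 and 968 at an unadjusted p under 0.05), and left Adm at 1.28 ± 0.25 (adjusted p = 0.45), Ndrg1 at 0.79 ± 0.48 and Bnip3 at -0.31 ± 0.35. Among the other 3 origins, limma called no member in any pair (TTF minus B, TTF minus T, B minus T), where 0.0484%, 0.0888% and 0% of genes were called, and 1, 1 and 0 members had an unadjusted p under 0.05. The F-test over the 4 origins called 8 of 9 members (32.2% of genes), Gys1 not among them. TTF minus the other origins called 6 members as lower (8.46% of genes), a contrast that shares the high Gra lines. With the marker mean as a covariate all 6 of these calls were lost, Adm stayed below 0 at -0.22 ± 0.26 and the other 5 turned positive (Egln1 0.48 ± 0.27, Egln3 0.90 ± 0.42, Bnip3 0.81 ± 0.36, Ndrg1 0.06 ± 0.50 and Gbe1 0.54 ± 0.23). Only Gbe1 kept its call without TTF clone 1, and no member did without TTF clone 2. B minus the other origins called Adm (-0.57 ± 0.08, adjusted p = 0.031), where 0.0484% of genes were lower.

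The pathway lists moved with the members at p10. Of 17 glycolytic genes, 16 were higher in Gra and none lower, with Aldoc at 1.71 ± 0.20, Hk1 at 1.19 ± 0.16 and Pfkfb3 at 0.97 ± 0.10. Of 26 other HIF targets, 20 were higher and 1 lower, including Car12, a carbonic anhydrase (1.64 ± 0.21), Ero1a, a disulfide-forming oxidase (1.40 ± 0.19), Ddit4, an inhibitor of mTOR signalling (1.30 ± 0.13), and P4ha2, a collagen prolyl hydroxylase (1.11 ± 0.13). Hif3a was higher by 0.95 ± 0.08 and Hif1a lower by -0.22 ± 0.06 (adjusted p = 0.014). Of the glycogen list, 11 of 19 were higher and 1 lower, with the liver-type phosphorylase Pygl at 2.22 ± 0.23 and Ppp1r3c at 1.69 ± 0.12. Ndrg2, the Ndrg1 relative, was higher by 1.43 ± 0.15, and Nrp1, a co-receptor for Vegfa, was lower by -1.67 ± 0.14.

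**Figure D3:**
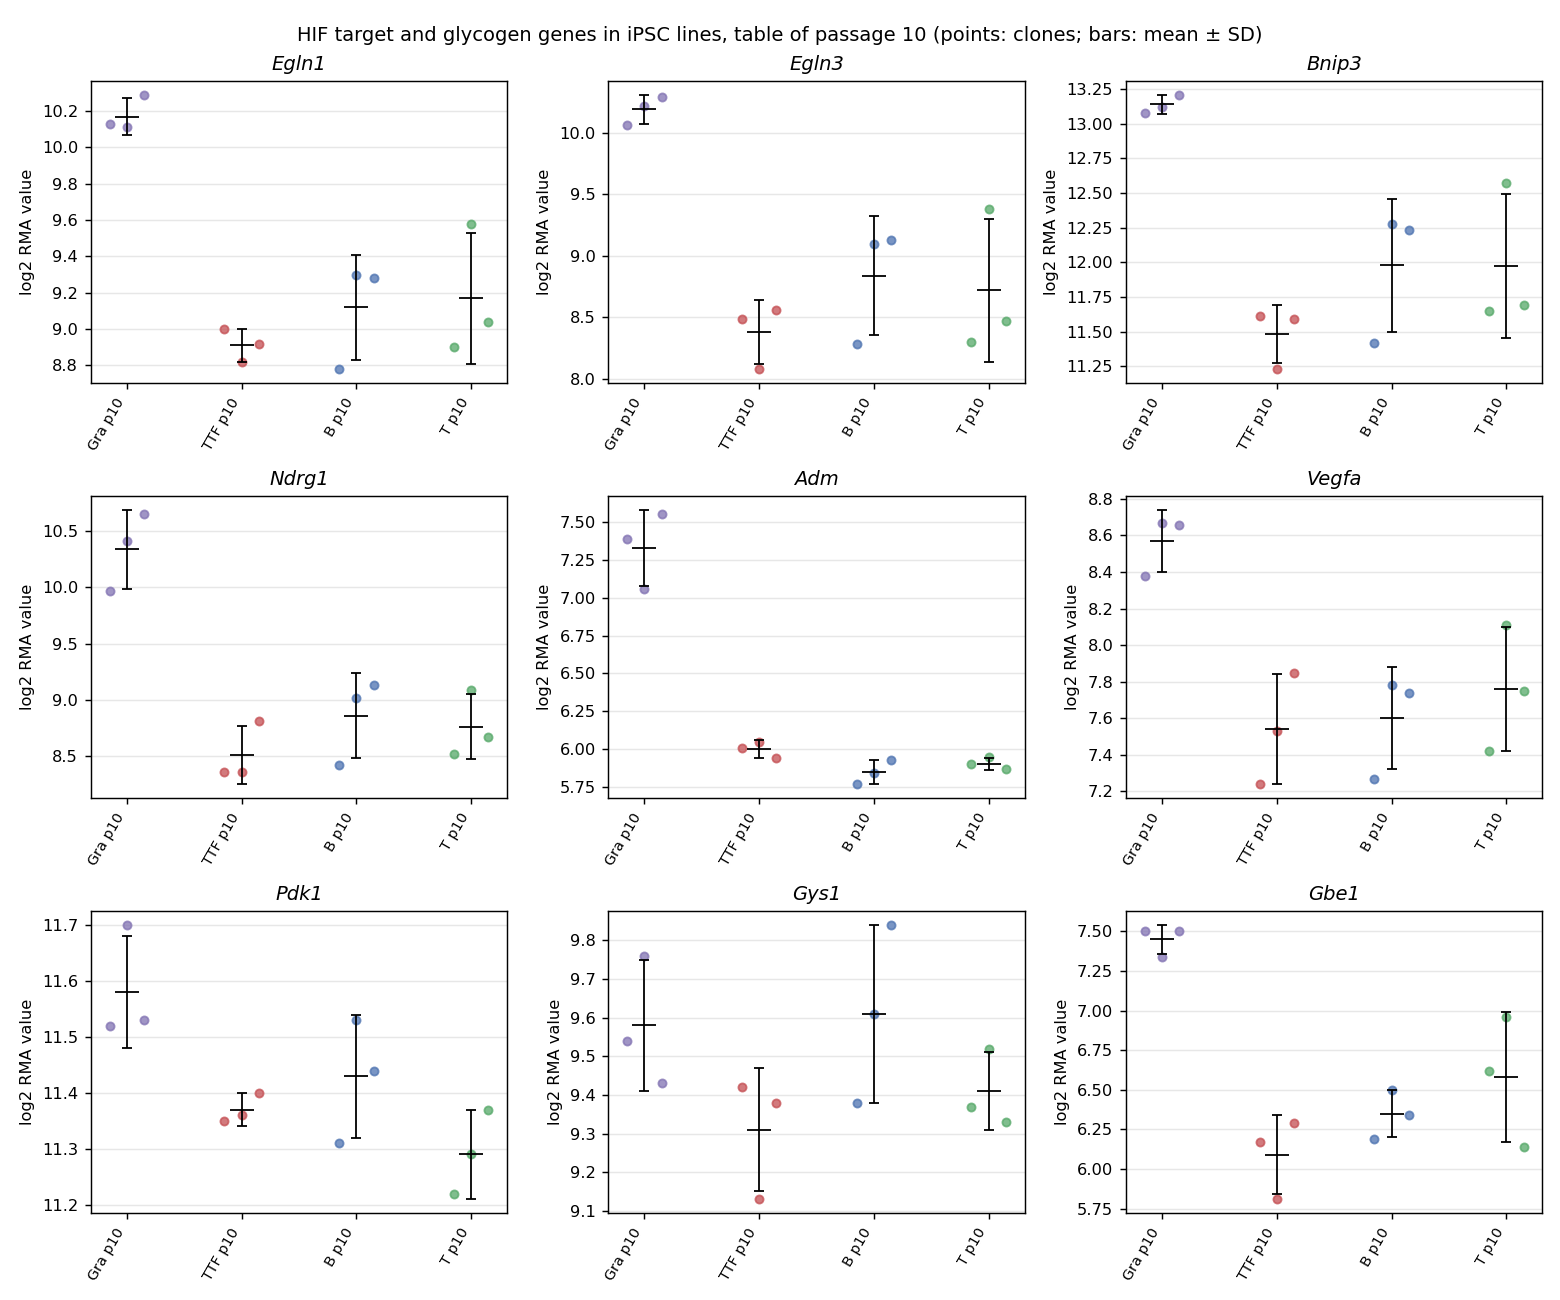
Log2 values of the 9 genes in each clone at p10 (points, with mean ± SD bars), Gra left of the other origins; the y axes differ between panels. Gra clones lie above all others in 7 panels, and in the Gys1 and Pdk1 panels they overlap.

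By p16, with all clones, Adm was the 1 member called between the origins of mouse 2. T clones had 5.97, 5.09 and 5.55, against 6.98, 6.40 and 7.25 in Gra, while B clones had 6.87, 6.65 and 5.89 and TTF clones 6.14, 6.23 and 5.55. T lay below Gra in every clone, by -1.34 ± 0.25 (adjusted p = 0.0036, with 2.93% of genes lower), and overlapped both other origins. Against the mean of the others, Adm was lower in T (-0.90 ± 0.20, adjusted p = 0.013, with 1.88% of genes lower) and higher in Gra (0.88 ± 0.20, adjusted p = 0.035, with 1.7% higher). Without the outlying Gra clone 3, Adm kept its calls for T minus Gra (-1.15 ± 0.26, adjusted p = 0.016) and for T (-0.84 ± 0.20), but lost the one for Gra (0.70 ± 0.22, adjusted p = 0.44). The call for T was also lost without T clone 2 (-0.68 ± 0.22, adjusted p = 0.13), without T clone 3 (-0.91 ± 0.24, adjusted p = 0.059) and with the fibroblast marker mean as a covariate (-0.90 ± 0.28, adjusted p = 0.12). The call for Gra was lost without TTF clone 3 or T clone 2 as well (0.81 ± 0.20 in both, adjusted p = 0.056 and 0.06). Gbe1 had 7.33, 7.40 and 5.38 in the Gra clones at p16, against 6.41, 6.92 and 5.92 in T, 7.15, 7.11 and 6.89 in B and 7.01, 7.75 and 7.02 in TTF. Without that clone at 5.38, T was lower than the mean of the others in Gbe1 as well (-0.81 ± 0.19, adjusted p = 0.011), where it had -0.59 ± 0.28 and no call with all clones (adjusted p = 0.3). The F-test over the 4 origins with all clones called Adm (adjusted p = 0.017) and no other member, where it called 1.52% of all genes, and it called none without T clone 2. The TTF lines, low at p4, stood at 11.87, 11.99 and 11.92 for Bnip3 and at 9.37, 9.46 and 9.45 for Ndrg1, with other origins at 11.52 to 12.16 and at 9 to 9.79. Fibroblast marker means at p16 were 7.35 to 7.51 in TTF, 7.23 to 7.62 in B, 6.73 to 7.09 in T and 7.23 to 7.40 in Gra. T overlapped no other origin in that mean, so the covariate fit cannot separate it from origin.

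With passage, p16 minus p4, the TTF lines gained most of the members. In TTF, Ndrg1 rose by 2.55 ± 0.22 (fold 5.87, adjusted p = 1.7e-08), Gbe1 by 2.41 ± 0.35 (fold 5.32, adjusted p = 3e-05), Bnip3 by 2.15 ± 0.16 (fold 4.44, adjusted p = 8.7e-10), Egln3 by 1.69 ± 0.25, Egln1 by 1.34 ± 0.18 and Gys1 by 1.22 ± 0.18. All 6 genes had higher values in every p16 clone than in every p4 clone, and 5.76% of all genes rose. The TTF fibroblast marker means were 7.35 to 7.51 at p16, against 6.73 to 6.99 at p4, and 13 of 30 markers were higher and 2 lower. With that mean as a covariate all 6 were still called, with Bnip3 at 2.36 ± 0.22 and Gys1 at 1.05 ± 0.25. The passages did not overlap in that mean, so this fit cannot separate it from passage. The glycolytic list rose too in TTF, 14 of 16 genes and none lower, with Slc16a3 at 2.2 ± 0.13 and Hk2 at 1.75 ± 0.23.

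Gys1, the muscle-type glycogen synthase, rose in all 4 origins of mouse 2. In TTF it had 8.34, 8.09 and 8.50 at p16, against 7.40, 6.75 and 7.12 at p4. In B it had 8.30, 7.96 and 8.30 at p16, against 7.40, 7.14 and 6.87 at p4. The passages did not overlap in either origin. In T it had 8.31, 8.36 and 8.60 at p16, against 7.21, 7.22 and 7.25 at p4. In Gra it had 8.35, 8.50 and 8.37 at p16, against 6.54, 6.85 and 6.76 at p4. Every p16 clone of mouse 2 was above every p4 clone. The rises were 1.22 ± 0.18 in TTF, 1.05 ± 0.18 in B, 1.2 ± 0.18 in T and 1.69 ± 0.18 in Gra (adjusted p = 5e-05, 0.00097, 5.5e-05 and 7.1e-07), 1.29 ± 0.09 over the 4 (adjusted p = 2.3e-10). No other member was called in all 4. With the fibroblast marker mean as a covariate Gys1 was still called in TTF, T and Gra but not in B (0.85 ± 0.28, adjusted p = 0.3), where that mean was 7.23 to 7.62 at p16, against 6.69 to 6.78 at p4. The passages did not overlap in that mean in any of the 4 origins, so the fit cannot separate it from passage. In mouse 1, p16 Gra clones had 8.09, 7.49 and 8.10, against 7.73, 7.64 and 7.21 at p4, an overlap, and the change of 0.36 ± 0.18 was not called (adjusted p = 0.48). The change in Gra differed between mouse 2 and mouse 1 by 1.32 ± 0.26 (adjusted p = 0.0055, with 2.19% of genes higher), and without the p16 clone 3 that stood apart it was 1.34. The second Gys1 probe set, with a mean level of 5.13, changed by 0.23 ± 0.09 over the 4 origins and was not called (adjusted p = 0.07).

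The other changes with passage varied by origin. Adm fell in T by 1.43 ± 0.25 (adjusted p = 2e-04), with p16 clones at 5.97, 5.09 and 5.55, against 7.25, 6.91 and 6.73 at p4. It rose in Gra by 1.36 ± 0.25 (adjusted p = 0.00022; 1.18 without the outlying clone), with p16 clones at 6.98, 6.40 and 7.25, against 5.57, 5.58 and 5.39 at p4. In both origins the passages did not overlap, in opposite directions. In Gra of mouse 1 it rose by 1.28 ± 0.25 (adjusted p = 0.0056) and in B by 0.92 ± 0.25 (adjusted p = 0.02), and in TTF it had 0.33 ± 0.25 with no call. Egln3 rose in T by 1.26 ± 0.25 and Pdk1 by 0.97 ± 0.25, though Pdk1 lost its call without p4 clone 3 (0.82, adjusted p = 0.052) and with the marker mean as a covariate (0.87 ± 0.35, adjusted p = 0.11), while Ndrg1 had -0.47 ± 0.22 there, without a call (adjusted p = 0.15). Pdk1 fell in Gra by 0.87 ± 0.25 (adjusted p = 0.01), with p16 clones at 10.66, 10.77 and 9.74, against 11.34, 11.29 and 11.15 at p4, and without clone 3 the fall was 0.55 with an adjusted p of 0.12. In Gra of mouse 2, Ndrg1 rose by 1.27 ± 0.22 (adjusted p = 0.00016) and Bnip3 by 0.79 ± 0.16 (adjusted p = 0.00067). Without the outlying clone these rises were 1.34 and 0.97. Ndrg1 rose in Gra of mouse 1 by 1.09 ± 0.22 (adjusted p = 0.0095), a call lost without p16 clone 1 (1.02, adjusted p = 0.072). In B the members with calls were Ndrg1 (1.24 ± 0.22), Gbe1 (1.09 ± 0.35, adjusted p = 0.049), Gys1, Adm and Egln3 (0.92 ± 0.25). The calls of Gbe1, Adm and Egln3 in B depended on single clones, as 2 to 5 members were called without 1 clone. With the marker mean as a covariate Ndrg1 was the 1 member still called in B (1.55 ± 0.33, adjusted p = 0.046). That mean did not overlap between the passages in B or in T, so these covariate fits cannot separate it from passage.

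The counts of members called with passage were 6 higher in TTF, 5 higher in B (5.51% of genes), 3 higher and 1 lower in T (7.49% and 10.4%), 4 higher and 1 lower in Gra of mouse 2 (22% and 14%) and 2 higher in Gra of mouse 1 (0.855%). Over the mean of the 4 origins, 6 of 9 rose: Gys1, Ndrg1 (1.15 ± 0.11), Egln3 (1.05 ± 0.13), Gbe1 (0.94 ± 0.17), Bnip3 (0.83 ± 0.08) and Egln1 (0.45 ± 0.09), where 16.6% of genes did, with a median of 0.83 against 0.07. Adm (0.30 ± 0.12), Vegfa (0.18 ± 0.13) and Pdk1 (0.14 ± 0.13) were not called. The change differed between origins for 7 of 9 members by the interaction F-test (32.8% of genes), the exceptions being Vegfa (adjusted p = 0.33) and Gys1 (0.19), and for 6 without the outlying clone. TTF changed more than the mean of the others in Gbe1 (1.96 ± 0.40), Ndrg1 (1.87 ± 0.26), Bnip3 (1.76 ± 0.19) and Egln1 (1.19 ± 0.21), where 5.53% of genes did. The change in T minus the mean of the others was negative in Adm (-2.30 ± 0.28), Ndrg1 (-2.16 ± 0.26) and Bnip3 (-0.98 ± 0.19) and positive in Pdk1 (1.10 ± 0.29), where 11.1% of genes were lower and 5.52% higher. That mean holds the TTF gains, 2.15 in Bnip3, where T changed by 0.10 ± 0.16 and B by 0.28 ± 0.16. The same limma contrast for B was also negative in Bnip3 (-0.74 ± 0.19, adjusted p = 0.038). The call of Pdk1 was lost with the marker mean as a covariate (0.91 ± 0.55, adjusted p = 0.44). The change in Gra minus the mean of the others was called negative in Gbe1 (-1.71 ± 0.40), Pdk1 (-1.36 ± 0.29), Egln3 (-0.94 ± 0.29) and Egln1 (-0.77 ± 0.21). It was called positive in Adm (1.42 ± 0.28). This contrast was not refitted without the outlying clone, and the share of all genes it called is not given here. Fibroblast marker means went down in T, 6.73 to 7.09 at p16 against 7.40 to 7.64 at p4, and up in the other origins of mouse 2. In Gra of mouse 2 they were 7.23 to 7.40 at p16, against 6.92 to 7.09 at p4. In Gra of mouse 1 they were 7.21 to 7.68 at p16, against 6.66 to 7.19 at p4, and with them as a covariate the rise of Adm there lost its call (1.28 ± 0.34, adjusted p = 0.12). Within each origin these means did not overlap between the passages, so a fit with them cannot separate them from passage.

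**Figure D4:**
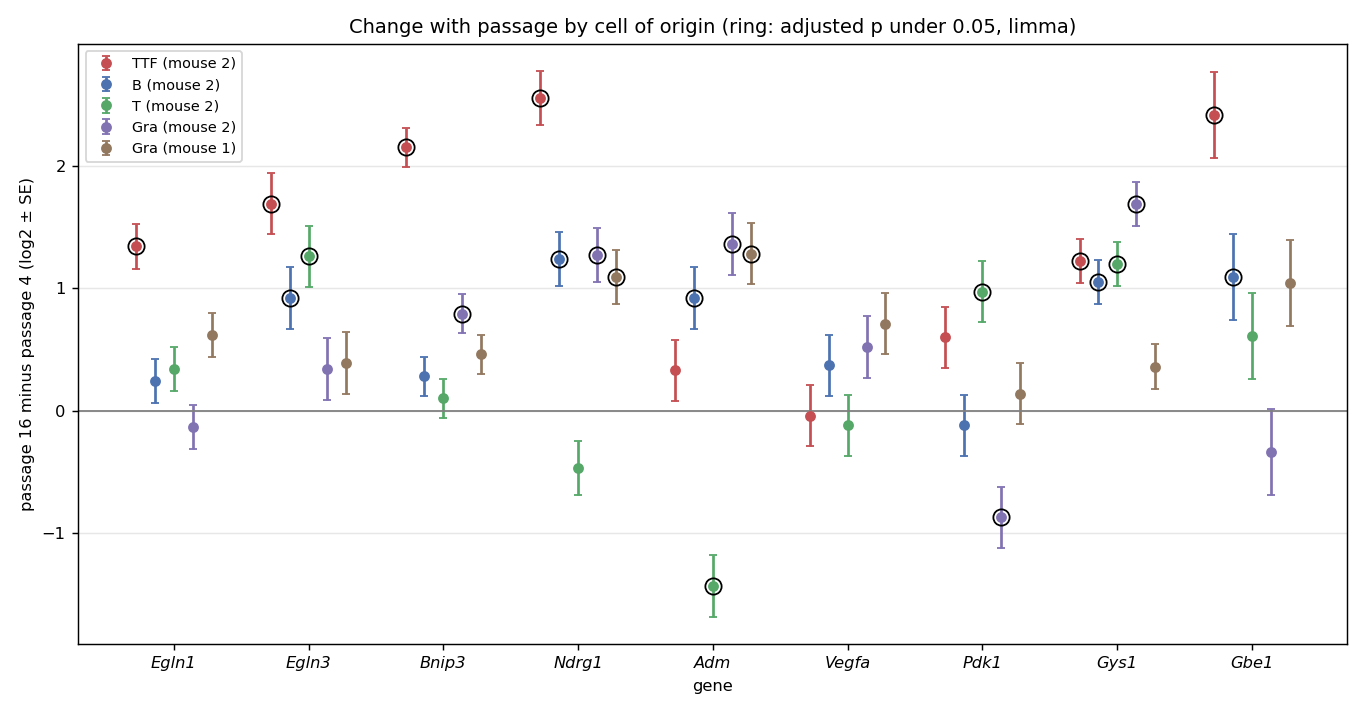
Change with passage (p16 minus p4, log2 ± SE) of the 9 genes, by origin and mouse, with rings where the adjusted p was under 0.05. Gys1 is ringed for all 4 origins of mouse 2, and Adm lies at -1.43 for T and at 1.36 for Gra.

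In mouse 1, the muscle precursor lines at p6 had high vessel signals and low oxygen sensors beside the Gra lines at p4, with passage differing as well as origin. Adm had 7.23, 7.77 and 7.67 in SMP, against 5.65, 5.51 and 5.15 in Gra p4. Vegfa, the angiogenic growth factor, had 8.92, 9.17 and 9.10 in SMP, against 7.45, 7.66 and 7.84 in Gra p4. Both were separate in every clone, by 2.12 ± 0.25 (fold 4.34, adjusted p = 9.2e-07) and 1.41 ± 0.25 (fold 2.66, adjusted p = 0.00018), and Ndrg1 was higher by 1.34 ± 0.22 (adjusted p = 8.5e-05). Egln1 had 8.93, 8.67 and 8.79 in SMP, against 9.70, 9.82 and 9.54 in Gra p4, and Egln3 had 8.48, 8.13 and 8.28, against 9.44, 9.73 and 9.28. These were lower by -0.89 ± 0.18 (adjusted p = 0.00057) and -1.19 ± 0.25 (adjusted p = 0.0011), with Pdk1 at -1.04 ± 0.25 and Gys1 at -0.51 ± 0.18 (adjusted p = 0.043, lost in 5 of the settings without 1 clone). Bnip3 was level, at 11.63, 11.77 and 11.59 in SMP and 11.60, 11.63 and 11.74 in Gra p4. In all, 3 members were higher and 4 lower (11.6% and 10.1% of genes), with a median of 0.01, against 0.06 over all genes. The second Egln1 probe set did not share the fall (0.10 ± 0.17, adjusted p = 0.76), while the second Vegfa probe set did share the rise (1.66 ± 0.19).

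SMP had fibroblast marker means of 7.43 to 7.66, against 6.66 to 7.19 in Gra p4, and 13 of 30 markers were higher and none lower, while 5 of 12 endoderm markers were lower, with Cubn at -3.75 ± 0.65. With the fibroblast marker mean as a covariate Egln1, Egln3, Ndrg1, Adm and Vegfa were still called, while Pdk1 (-0.92 ± 0.38, adjusted p = 0.13) and Gys1 (-0.72 ± 0.27, adjusted p = 0.092) were not. SMP and Gra p4 did not overlap in that mean, so the fit cannot separate it from group. The part of the endoderm markers was not tested. Against Gra p16 of the same mouse, with marker means of 7.21 to 7.68, the sensors stayed lower in SMP: Egln3 by -1.58 ± 0.25 (adjusted p = 0.00014) and Egln1 by -1.51 ± 0.18 (adjusted p = 3.9e-06), with Pdk1 at -1.18 ± 0.25 and Gys1 at -0.88 ± 0.18. Adm was higher, by 0.83 ± 0.25 (adjusted p = 0.022), and its call was lost when any of 4 clones was left out. That is 1 member higher and 4 lower, against 6.25% and 7.86% of genes. Among the lists beside Gra p4, 10 of 19 glycogen genes were higher and 1 lower, with Ppp1r3c (2.23 ± 0.31), Pygl (1.88 ± 0.35) and the glycogen primer Gyg (1.43 ± 0.29), and 8 of 26 other HIF targets were higher, with Car9, a carbonic anhydrase, at 1.41 ± 0.25. Arnt was higher by 1.03 ± 0.22. Between the Gra lines at p4, mouse 2 was below mouse 1 in Gys1 (-0.81 ± 0.18, adjusted p = 0.0062) and Bnip3 (-0.58 ± 0.16, adjusted p = 0.024), where 4.43% of genes were lower, and Bnip3 lost the call without any of 5 single clones. Marker means were 6.92 to 7.09 in mouse 2 and 6.66 to 7.19 in mouse 1, and both calls held with them as a covariate.

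Ranked over the 11 groups of the first table, most neighbouring groups could not be told apart by their clones. Of 10 neighbouring pairs, 3 did not overlap for Bnip3 and for Ndrg1, 2 for Egln1, 1 for Egln3, Vegfa, Pdk1, Gys1 and Gbe1 and none for Adm. TTF at p4 was the lowest group for Egln1, Egln3, Bnip3, Ndrg1 and Gbe1, SMP the highest for Adm and Vegfa, and Gra of mouse 2 at p4 the highest for Pdk1 and the lowest for Gys1. Group means spanned 2.93 for Ndrg1, 2.41 for Gbe1, 2.34 for Bnip3, 2.15 for Egln3, 2.12 for Adm, 1.80 for Egln1, 1.70 for Gys1, 1.44 for Vegfa and 1.43 for Pdk1.

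The members did not all run together. Over the 33 arrays, which share groups and normalization, the correlation of each member with the mean of the other 8 was 0.89 for Bnip3, 0.775 for Ndrg1, 0.746 for Egln3, 0.734 for Gbe1 and 0.693 for Egln1, against 0.517 for Gys1, 0.241 for Pdk1, 0.206 for Adm and 0.147 for Vegfa. Over the 36 pairs the median r was 0.472, and 0.276 once each clone was taken as its deviation from its group mean. At p10, over 12 arrays, the medians were 0.851 and 0.522, and Egln3 and Bnip3 deviated together within groups at r = 0.99. Among genes outside the set, the 5 most like the members' mean in the first table were Slc16a3 (r = 0.932), Loxl2 (0.917), Anxa2 (0.882), Pfkl (0.877) and Fam162a (0.874), and at p10 they were Ddb2 (0.99), Aldoc (0.99), Ncapg (0.989), Ndrg2 (0.988) and Klhl2 (0.987).

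How far other probe sets of the members moved the same way varied by comparison. In the first table, 2 of 5 shared the sign in B minus T at p4 and in Gra minus the others at p16. For passage it was 3 of 5 in B and 5 of 5 over the mean of the 4 origins. At p10, all 9 other probe sets had the same sign as the chosen one in Gra minus the other origins, and 6 were called, with 14 of all 18. Of the 5 probe sets of Ndrg1 at p10, 4 were called at 1.32 to 1.64 and 1 was not (0.18, adjusted p = 0.25). At p4 in TTF, 4 of 5 other probe sets shared the sign, and 1 of them was called, the second Egln1 probe set at -1.17 ± 0.14 (adjusted p = 2e-06), while Egln3 and Pdk1 gave -0.38 ± 0.20 and -0.40 ± 0.19 without a call. That Egln1 probe set rose with passage by 2.38 in TTF, 1.35 in B, 1.14 in Gra and 1.26 in Gra of mouse 1, where the first gave 1.34, 0.24, -0.13 and 0.62. The second Vegfa probe set was higher in T at p4 by 1.28 ± 0.15 (adjusted p = 2.1e-06) and fell with passage in T by 0.92 ± 0.19, which the first did not show (-0.12 ± 0.25).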

How the data were processed

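RNA was labelled as biotinylated cRNA and hybridised to Affymetrix arrays, per the labels' protocols. The authors deposited log2 values per probe set, made with RMA per the submitters' processing notes; its version is not given in the sources used here. The 33 arrays of passages 4, 6 and 16 and the 12 arrays of passage 10 form separate tables of 22690 probe sets, normalized separately and never fitted together. They were deposited under different array platforms, so passage 10 cannot be told apart from platform. Probe sets with 1 symbol in the platform annotation were used, and a gene took its values from its brightest probe set on average. The tables were modelled one by one in limma (3.58.1, under R 4.3.3; lmFit, eBayes; 1 mean per group; two-sided; Benjamini-Hochberg over all genes; threshold 0.05). A second fit took all probe sets. The fit was tested on simulated data. List genes were matched by symbol or gene ID, 148 of 172 in the first table and 155 of 172 in the other. Of each pathway list, up to 4 called genes with the largest change and no overlap were named, all members always. Motifs were searched on both strands.

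The members and lists were chosen with earlier results of these data known. The labels name neither scan dates nor batches, and any batch aligned with a group cannot be told apart from that group. Precision is limited by how many arrays each group has. Alternatives were quantile normalization, averaged probe sets, genes above the median level only, the fibroblast marker mean as a covariate, the clone as a block, and each clone left out. After seeing the data, the array that stood apart was also left out of the comparisons it enters only through the shared spread. Whether clones with the same number at p16 and p4 deviated together from their group means was checked over 2000 genes. They did in the Gra lines of both mice, where all 6 correlated over 0.1 (r from 0.169 to 0.384). T was mixed, with 2 of 3 lines over 0.1 (0.41 and 0.16) and the other at -0.155. In B 1 of 3 lines passed 0.1 and in TTF 0 of 3. Over all 15 lines r ran from -0.317 to 0.41. The labels do not say that a number marks the same line.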

Additional observations from a re-analysis of the deposited data

Results flagged for a closer look

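The change with passage differed between the 4 origins of mouse 2 for 7 of the 9 genes, by limma's interaction F-test adjusted over all genes of the table, which called 32.8% of them. The adjusted p was 1.3e-06 for Bnip3, 2e-06 for Ndrg1, 7.4e-06 for Adm, 0.00046 for Egln1, 0.00094 for Gbe1, 0.0013 for Pdk1 and 0.027 for Egln3. Among the changes behind these were the gains of Bnip3, Ndrg1, Egln1 and Gbe1 in TTF, the opposite changes of Adm in T and Gra, and those of Pdk1 in T and Gra. Smaller rises were also called for Ndrg1 in B (1.24) and Gra (1.27) and for Bnip3 in Gra (0.79). With the outlying p16 clone 3 included, the change in Gra lay below the mean of the others in Gbe1 (-1.71), Egln3 (-0.94) and Egln1 (-0.77). That clone read 5.38 for Gbe1, 9.26 for Egln3 and 9.12 for Egln1, below both other Gra clones at p16. The contrast was not refitted without it. The second Egln1 probe set had a mean of 9.17 in Gra at p16, against 8.03 at p4. The change of Gys1 in the Gra lines differed between mouse 2 and mouse 1 by 1.32 on the log2 scale (adjusted p = 0.0055), with 1 mouse on each side. The cause of these differences was not tested.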

How the results depend on the processing

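Of 1362 recalculated values of 85 called gene results, 1268 kept direction and call, 86 kept direction but lost the call and 8 reversed. The reversals came at p10 with the fibroblast marker mean as a covariate: for TTF minus the other origins Egln1 had 0.48, Egln3 0.90, Bnip3 0.81, Ndrg1 0.06 and Gbe1 0.54, and for Gra minus the others Egln3 had -0.17, Bnip3 -0.31 and Gbe1 -0.09. The marker mean followed origin at p10, so that fit cannot separate them, and the cause of the reversals was not tested. For T at p4 and p16, for passage within each origin and for SMP minus Gra p4, marker means did not overlap, with the same limit. That covariate also moved the members called to 0 for TTF and 0 for Gra at p10, 2 in the p10 F-test, 0 in the p16 F-test, 0 for T minus the others at p16, 1 for passage in B and 1 for passage in Gra of mouse 1. With genes above the median level only, the count was 2 for B at p4, 3 for passage in B, 1 for passage in Gra of mouse 1 and 0 in the p16 F-test and in all 3 p16 contrasts of T and Gra. That filter takes out Adm and Gbe1, whose means of 6.20 and 6.44 lie below the median gene at 6.98, so these counts of 0 say nothing about Adm. Quantile normalization gave 2 for B at p4, and 4 gene results lost their call with it. These were Vegfa in T at p4 (0.56, adjusted p = 0.073), Gys1 in Gra at p4 (-0.37, adjusted p = 0.078), Gbe1 with passage in B (1.06, adjusted p = 0.095) and Gys1 in SMP minus Gra p4 (-0.49, adjusted p = 0.058). Leaving the outlying array out of the shared spread gave 2 for B at p4, 6 for Gra at p4, 4 for passage in Gra of mouse 1, 7 for SMP minus Gra p16 and 3 for the mice at p4, and no other count moved among comparisons without that array's group. Leaving out single clones gave 1 to 2 members for B at p4, 3 to 6 for Gra at p4, 4 to 5 for T at p4 and 5 to 6 for TTF at p4. At p10 it gave 0 to 7 for TTF and 7 to 8 for Gra. For passage it gave 2 to 5 in B, 3 to 4 in T, 4 to 5 in Gra, 6 to 6 in TTF, 6 to 7 over the mean and 1 to 4 in Gra of mouse 1. It gave 1 to 4 for the change of Gra between mice, 1 to 3 for the mice at p4, 6 to 7 for SMP minus Gra p4 and 4 to 7 for SMP minus Gra p16. At p16 it gave 0 to 2 for T, 0 to 1 for Gra and 1 to 2 for T minus Gra, and 4 to 5 for the change of TTF and for that of T against the others. The F-tests had 7 to 8 at p4, 7 to 8 at p10, 0 to 1 at p16 and 6 to 8 for passage. With the clone as a replicate block, members called with passage were 6 in TTF, 4 in B (Gbe1 lost, adjusted p = 0.079), 4 in T, 5 in Gra, 6 over the mean and 2 in Gra of mouse 1, and no other call changed, those in the Gra lines included. A probe set near background has a compressed difference, which limits Gbe1, Adm and the second Gys1 probe set; no detection calls were used.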

Other observations

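The genes around the members in T lines changed with passage as well (p16 minus p4, limma, adjusted p under 0.05 over all genes). Over all genes, 10.4% were lower and 7.49% higher. Of 19 measured glycogen genes, 8 were lower at p16 and none higher, while Gys1 itself rose. Ppp1r3c, which brings a phosphatase to glycogen, fell by 2.55 ± 0.31 on the log2 scale, the glycogen primer Gyg by 1.28 ± 0.29 and Gaa, the lysosomal enzyme that degrades glycogen, by 1.21 ± 0.20. Of 6 pyruvate dehydrogenase genes, 3 were lower, namely Pdk2 (-1.28 ± 0.28), Pdk4 (-1 ± 0.30) and Pdk3 (-0.97 ± 0.18), where Pdk1 rose. Arnt, the dimer partner of the HIF alpha subunits, fell by 1.42 ± 0.22 and Ndrg2 by 1.48 ± 0.29. Of 30 fibroblast markers, 12 were lower and none higher in the same comparison, with Mgp, a matrix protein, at -4.73 ± 0.33, and the part of these markers in the result was not tested.

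In Gra lines of mouse 2 at p4, where Gbe1 and Pdk1 were high, 12 of 19 glycogen genes were lower than the mean of the other origins and none higher, among them the brain and muscle phosphorylases Pygb (-0.79 ± 0.16) and Pygm (-0.77 ± 0.17). Over all genes, 14.8% were lower and 8.33% higher in this comparison, shares to be set beside each count here. Pdk2 was lower by -1.57 ± 0.23. Of 16 glycolytic genes, 6 were higher and 1 lower, with Hk2 at 1.08 ± 0.19 and Slc16a1, a lactate carrier, at 0.58 ± 0.13. Hif1a was higher (0.56 ± 0.16) and Hif3a lower (-0.68 ± 0.15). Of 26 other HIF targets, 3 were higher and 8 lower, with Stc2, a secreted glycoprotein, at 1.30 ± 0.28 and Ddit4 at -0.72 ± 0.14. Of 30 fibroblast markers, 5 were higher and 7 lower, with Timp3 at 1.89 ± 0.26 and Mmp2 at -1.89 ± 0.23, and their part was not tested either.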
